A study of Mus musculus with 23 samples.

Results

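Muscle precursor cells taken straight from mouse muscle were set against cells of the same kind at passage 0 of culture, by reading DNA methylation across the genome. The comparison takes 4 of the 23 libraries of the series, chosen by their labels. The 2 never cultured libraries are ScQ, from uninjured muscle, and ScA, from muscle 3 days after an injection of cardiotoxin (CTX in the labels), a snake toxin that destroys muscle fibres and sets off regeneration. The 2 passage 0 libraries, SC26-AP and SC27-AP, come from cells kept under proliferation conditions, which for primary myoblasts meant Ham's F-10 medium with serum and basic fibroblast growth factor on collagen. The labels class all 4 as passage zero primary myoblasts and describe only ScQ and ScA as not cultured. All 4 are labelled male, genotype C57BL/6J, with no other allele or agent named, and no pool of animals, cell sort or age is given. The numbers 26 and 27 also name the cultures of late passage myoblasts and myotubes elsewhere in the series. Neither of the never cultured libraries has a counterpart of the same number, so the origin of the cells and the step into culture cannot be told apart. Of the 173430 genomic fragments in the table, the 49684 under 2000 bp on chromosomes 1 to 19 were kept (28.6%), and 15321 of these had enough reads to test.

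Satellite cells are the stem cells of skeletal muscle. They lie between the muscle fibre and its basal lamina, express the paired-box factor Pax7 and are quiescent until damage activates them. On activation, as in culture, they divide as myoblasts, which carry the myogenic factors Myf5 and Myod1 and later fuse under Myog into myotubes. DNA methylation of CpG sites is generally low in CpG islands at promoters and high over repeats such as LINE and LTR elements. In AIMS-seq (amplification of inter-methylated sites), SmaI first cuts the unmethylated copies of the site CCCGGG to blunt ends, and XmaI cuts the methylated ones to cohesive ends that accept adaptors. A fragment is therefore amplified when the sites at both of its ends are methylated, and its read count is relative, not a percentage of methylation. Since the assay does not read RNA, the identity of the cells could not be checked by marker expression.

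The sequences below show what such a fragment is. They were read from the mm9 genome (NCBIM37) on the plus strand, and capitals mark the CCCGGG sites, the only part whose methylation the assay reads. Myf5 and Dnmt3a stand for genes followed in every comparison. Spen stands for the leading fragment of a named protein-coding gene higher in passage 0, and the intergenic fragment for those with 0 reads in both passage 0 libraries.
Myf5, coding exon, chr10:106921113-106921347: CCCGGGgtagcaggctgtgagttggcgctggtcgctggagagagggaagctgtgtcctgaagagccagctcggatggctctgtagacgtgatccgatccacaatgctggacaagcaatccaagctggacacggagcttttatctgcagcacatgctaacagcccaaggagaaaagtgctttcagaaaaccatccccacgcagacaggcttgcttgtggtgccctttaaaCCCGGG
Dnmt3a, intron, chr12:3819794-3819997: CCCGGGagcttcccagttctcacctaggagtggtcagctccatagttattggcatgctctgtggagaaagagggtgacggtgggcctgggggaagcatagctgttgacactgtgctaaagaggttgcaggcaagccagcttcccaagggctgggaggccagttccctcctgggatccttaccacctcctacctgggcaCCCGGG
Spen, intron, chr4:141061531-141061797: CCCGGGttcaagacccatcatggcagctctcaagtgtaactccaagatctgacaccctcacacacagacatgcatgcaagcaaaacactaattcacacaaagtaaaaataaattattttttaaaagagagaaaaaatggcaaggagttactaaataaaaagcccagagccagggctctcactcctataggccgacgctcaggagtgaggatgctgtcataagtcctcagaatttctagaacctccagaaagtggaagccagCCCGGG
Intergenic, chr5:147490407-147490697: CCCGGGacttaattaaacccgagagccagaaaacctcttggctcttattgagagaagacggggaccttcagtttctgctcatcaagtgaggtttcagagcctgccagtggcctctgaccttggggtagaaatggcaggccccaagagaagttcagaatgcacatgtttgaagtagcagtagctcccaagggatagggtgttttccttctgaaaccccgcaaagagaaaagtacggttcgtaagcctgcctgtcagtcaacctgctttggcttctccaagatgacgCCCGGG
The left ends of a fragment in an intron outside CpG islands (Ifltd1) and of one in a promoter island (Dgkh) had 1 and 4 CG in 24 bases. Their right ends, not printed, did not differ, with 1 CG each. Over the whole fragment Ifltd1 had 4 CpG sites and Dgkh 16.
Ifltd1, left end, chr6:145327060-145327083: CCCGGGtgatcatggtgttacaca
Dgkh, left end, chr14:79125036-79125059: CCCGGGatcacgcgccgcccctgc

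The 4 libraries held 6237851 (ScQ), 7750810 (ScA), 7737035 (SC26-AP) and 9156144 reads (SC27-AP), of which 91.9% to 94.4% lay in the fragments kept. The sex chromosomes did not give all 4 libraries the same picture, although all are labelled male. In CPM, the reads scaled to the library total, chromosome Y took 101.0 in ScQ, 101.8 in ScA and 78.8 in SC26-AP, against 234.9 in SC27-AP, while chromosome X took 30695, 27374 and 27614 CPM against 14791. Across the series, 8 libraries lay low on Y (53.8 to 101.8 CPM) and high on X (20974 to 30695), and these are the 3 named here, the 4 late passage and myotube libraries of culture 26, and 1 muscle library. The other 15 had 154.6 to 255.5 on Y and 10679 to 14791 on X. SC27-AP thus stood apart from the other libraries compared, and the class medians below are also given with either passage 0 library alone.

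No fragment passed the test between never cultured and passage 0 cells. With edgeR's quasi-likelihood test on the raw counts, 0 of 15321 fragments (0%) had a Benjamini-Hochberg adjusted p under 0.05, and the smallest adjusted p was 0.0966. At an unadjusted p under 0.05 there were 975 fragments higher in passage 0 (6.36% of those tested) and 1551 lower (10.1%). DESeq2, run on the same counts, called 11 fragments higher (0.0687%) and 71 lower (0.443%) of 16015. Of the 71 lower ones, 26 touched a promoter, 14 an island and 13 a shore, and their median GC content was 56.1%. The 11 higher ones, too few to judge by class, had no promoter or island fragment and a median GC content of 46.2%. Of the 15321 fragments tested in edgeR, a somewhat different set, 2298 touched a promoter, 584 an island and 1096 a shore. The middle quintile of their GC content ran from 48.2% to 51.4%. The count of called fragments depended on the libraries and on the settings. With all 4 libraries kept, edgeR called 411 with no low-count filter and 114 with library totals. Without SC26-AP edgeR called 5741 (2719 higher and 3022 lower), and without SC27-AP it called 406 (24 and 382), each time with the lone library assumed to vary as the never cultured pair did.

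The spread that the test met was larger within passage 0 than within the never cultured pair. ScQ and ScA correlated at r = 0.96 over the 15321 tested fragments on the log2 scale, as a description, with a median absolute difference of 0.40. SC26-AP and SC27-AP stood at r = 0.92 and 0.65. Only 15 fragments (0.0979%) differed by more than 4-fold between ScQ and ScA, against 928 (6.06%) between the passage 0 libraries. SC26-AP lay close to both never cultured libraries (r = 0.94 with each), with 282 fragments (1.84%) over 4-fold from ScQ and 412 (2.69%) from ScA. SC27-AP lay farther off (r = 0.86 and 0.88), with 2042 (13.3%) and 1925 (12.6%). Of the late passage myoblasts, SC27-AP was nearest to culture 21 (r = 0.93) and not to its own number (0.88 with MPC27-P), whereas ScA was nearest to MPC27-P (0.94) and ScQ to MPC26-P (0.92).

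Among the tested fragments, CpG islands were the class with the largest median change between the groups. Levels below are CPM after TMM scaling, a scaling to effective library size, and changes are log2, passage 0 minus never cultured, which is negative where passage 0 cells had fewer reads. The 584 tested island fragments had a median level of 7.38 CPM in ScQ and 6.16 in ScA, and of 3.24 in SC26-AP and 0.338 in SC27-AP. Both passage 0 libraries thus lay below both never cultured ones, SC27-AP farthest. The median log2 change of islands was -1.82, with quartiles at -2.61 and -1.37, against -0.06 over all tested fragments. In 494 of the 584 (84.6%) both passage 0 libraries were lower than both never cultured ones, against 33.1% of all tested fragments. In 11 (1.88%) both were higher, against 28.6%. Of the 14732 island fragments kept, only these 584 had enough reads to test. A fragment could meet that filter through the never cultured pair alone, so these shares and the median are partly set by the filter. The same filter applies to the other classes and lists. The detection counts and read shares below cover all fragments kept. With SC26-AP alone the island median was -1.0, and with SC27-AP alone it was -4.39.

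Shores, the flanks of islands, had a median change of -0.98 over 1096 fragments, and fragments in neither class 0.06 over 13641. Promoter fragments, which touch the 2000 bp before or the 500 bp after a gene's start, stood at -0.92 over 2298, against -0.13 for exons, 0.11 for introns and 0.05 between genes. With SC26-AP alone the shore and promoter medians were both -0.45, and with SC27-AP alone they were -1.64 and -1.25. Detection gave the same order. After all 4 libraries were thinned to 5732958 reads, 5 or more reads were found in 749 island fragments of ScQ and 735 of ScA, in 506 of SC26-AP and in 156 of SC27-AP. Over all fragments the numbers were 16834, 16848, 14988 and 13382 (unthinned 16834, 17224, 15345 and 14158).

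**Figure D1:**
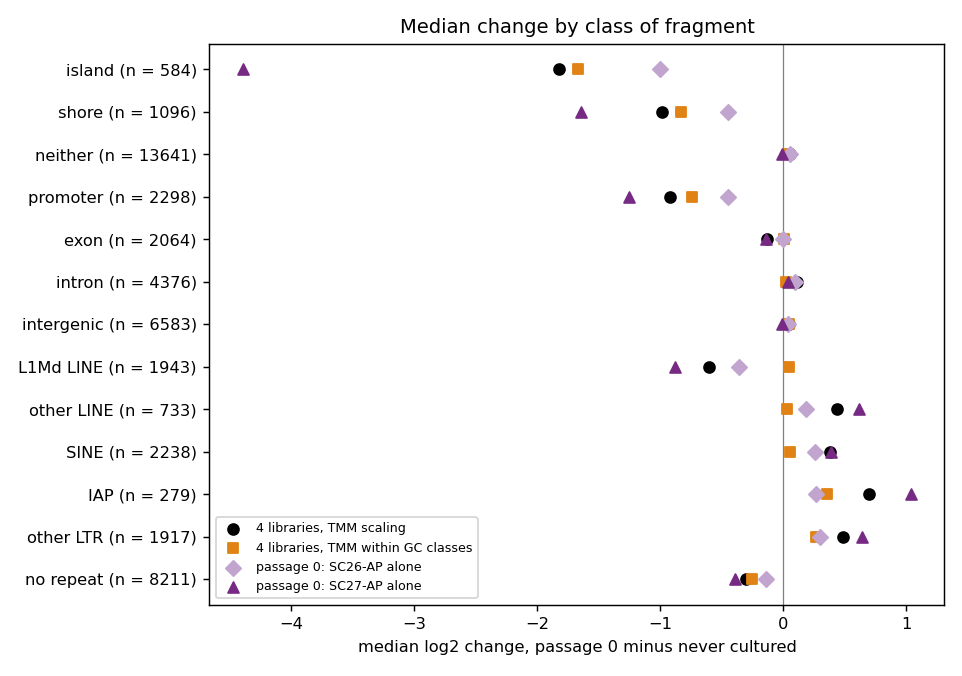
Median log2 change (x axis, passage 0 minus never cultured) of the tested fragments of each class (y axis, with their number), for the 4 libraries with TMM scaling, with TMM within classes of GC content, and with either passage 0 library alone. Islands lie at -1.82 and -1.67 with both libraries and at -1.0 and -4.39 with 1, while L1Md elements move from -0.60 to 0.05 within GC classes.

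As a share of all reads of the fragments kept, island fragments took 1.21% in ScQ and 0.978% in ScA, 0.591% in SC26-AP and 0.22% in SC27-AP. The share of SC27-AP was the lowest of the 23 libraries. Late passage myoblasts of the same culture numbers had 1.23% (26) and 1.4% (27), so the passage 0 libraries lay below both the uncultured cells and their own later passages. Late passage and differentiating cells of culture 21 had only 0.239% to 0.307%. The largest share was that of muscle library QC-Y40 (4.72%), followed by culture 27 at days 4 and 1 (4.4% and 4.27%). Libraries of 1 DNA source also differed: CGR8, an embryonic stem cell (ESC) line, gave 0.299% and its technical replicate 0.533%.

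**Figure D2:**
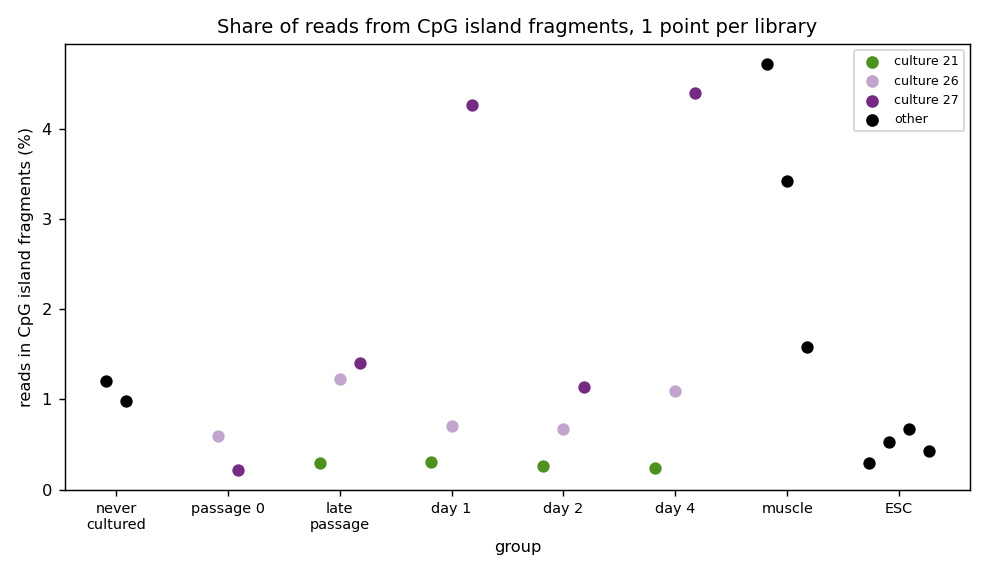
Percentage of reads from CpG island fragments (y axis, from 0) in each of the 23 libraries (points) by group (x axis), coloured by culture number. The 2 passage 0 libraries (0.591% and 0.22%) lie below the 2 never cultured ones (1.21% and 0.978%), and culture 21 lies at 0.239% to 0.307% throughout.

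The change between groups also ran with the GC content of the fragment. Over quintiles of the tested fragments from the lowest GC content (29.1% to 44.7%) to the highest (55.9% to 100%), the median log2 change was 0.70, 0.38, 0.07, -0.50 and -0.93. In the lowest quintile, 538 of 3073 fragments had an unadjusted p under 0.05 in the higher direction and 59 in the lower, and in the highest quintile 11 and 677 of 3063. Every pair of 1 passage 0 and 1 never cultured library had the slope. It ran from 0.36 to -0.76 for SC26-AP against ScQ and from 0.99 to -1.07 for SC27-AP against ScQ. Against ScA it was weaker, from 0.17 to -0.34 for SC26-AP and from 0.86 to -0.72 for SC27-AP. Within the groups there was a slope too, from -0.45 to 0.19 for ScQ minus ScA and from 0.07 to -0.75 for SC27-AP minus SC26-AP (plain CPM + 1). The technical pair of CGR8 libraries had a slope as well, from 0.03 in the lowest quintile to -1.24 in the highest (library 1 minus its replicate, CPM + 1). The part of GC content in the differences between groups was not tested beyond the scaling that follows.

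**Figure D3:**
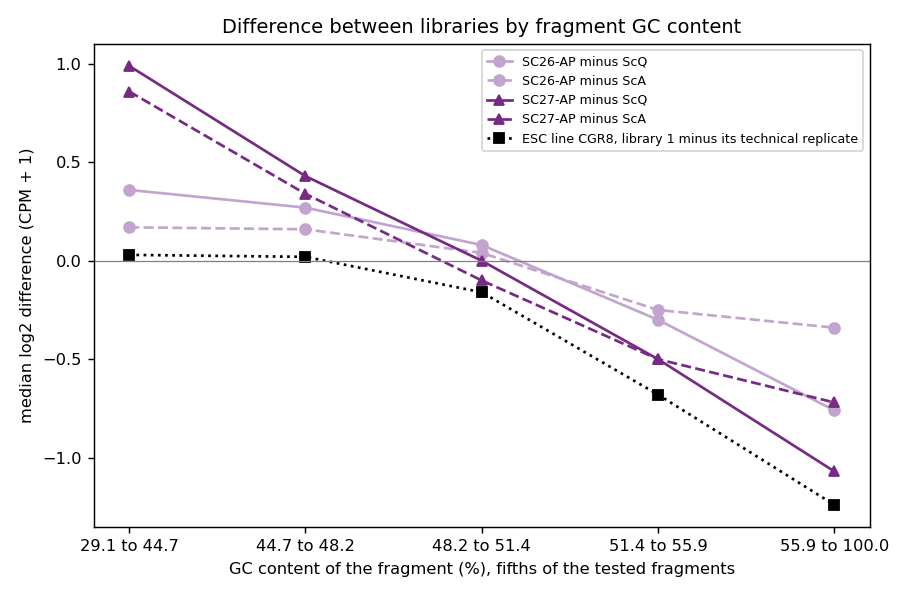
Median log2 difference between 2 libraries (y axis, CPM + 1) in quintiles of the tested fragments by GC content (x axis, %), for the 4 pairs of a passage 0 and a never cultured library after TMM scaling, and for the technical pair of CGR8 libraries at plain CPM. All lines fall with GC content, that of SC27-AP minus ScQ from 0.99 to -1.07 and that of SC26-AP minus ScA from 0.17 to -0.34.

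When TMM factors were set within 20 classes of GC content, an alternative chosen after the slope had been seen, 0 fragments passed in edgeR and the island median was -1.67. Islands were lower than fragments outside islands and shores in each quintile of GC content, as a description. They stood at -1.32 (45 fragments) against 0.72 in the lowest and at -2.42 (212) against -0.82 in the highest. The promoter median became -0.74 and that of shores -0.83. For repeats the scaling mattered more. L1Md fragments, the young LINE-1 families of the mouse with a median GC content of 60.8%, had a median change of -0.60 over 1943 fragments with TMM, and 0.05 within GC classes.

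LTR elements went the other way from islands. IAP fragments, from a family of endogenous retroviruses that is usually silenced by methylation, had a median level of 13.2 CPM in ScQ, 17.2 in ScA, 18.5 in SC26-AP and 31.3 in SC27-AP. Their median change was 0.70 over 279 fragments, and 0.36 within GC classes. In 130 of them (46.6%) both passage 0 libraries were higher, against 28.6% of all tested fragments, and in 14 (5.02%) both were lower. Other LTR fragments stood at 0.49 over 1917 (0.27 within GC classes) and SINE fragments at 0.38 over 2238 (0.06). With SC26-AP alone the IAP median was 0.27. Copies of a repeat share sequence, and how reads with several matches were placed is not given in the sources used here.

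The strongest single differences were fragments read in both never cultured libraries and at or near 0 in passage 0. The smallest p of the table belonged to an intergenic fragment (chr5:146267013-146267525, 513 bp), with 174 and 268 reads in ScQ and ScA and 0 in both passage 0 libraries. This is at least 181-fold lower in passage 0, taking 3 reads over the group as the floor (edgeR adjusted p = 0.0966). The intergenic fragment printed above had 50 and 76 reads against 0 and 0, at least 51.5-fold lower. An intergenic fragment at chr6:145602857-145603268 had 863 and 319 reads against 4 and 0. An intron fragment of Ifltd1, which encodes a protein with an intermediate filament tail domain (chr6:145327063-145327390), had 240 and 108 reads against 0 and 1, a ratio of 427 with an exact 95% interval of 76.2 to 16917 that covers counting error only. In all, 18 fragments had at least 25 reads in both never cultured libraries and at most 2 in both passage 0 libraries, and 0 had the reverse.

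Both chromosome 5 fragments just named and that of Ifltd1 also had reads in culture 21 and 0 to 3 in the late passage and myotube libraries of cultures 26 and 27. Most of the 18 did not share this pattern. A search made after seeing these values used the late passage and myotube libraries and took fragments with at least 50 reads in every library of some cultures and at most 5 in every library of the rest. It found 38 fragments read in culture 21 and in neither 26 nor 27, on chromosomes 2 (19), 6 (7), 11 (7) and 5 (5). SC26-AP and SC27-AP had at most 5 reads in all 38, as did both muscle libraries labelled 129Sv/C57BL/6J, while the C57BL/6J muscle library had more than 5 in all 38. The never cultured libraries were mixed. On chromosome 5 (145215080 to 150688443) they had 9 to 174 reads (ScQ) and 13 to 268 (ScA), on chromosome 11 they had 0 to 1 and 0, and on chromosome 2 they had 0 to 11 and 0 to 6.

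A further 15 fragments were at or near 0 in culture 26 alone, 10 of them on chromosome 7 (16822129 to 38559579). SC26-AP had at most 1 read in each of the 15 and SC27-AP 14 to 1275. On chromosome 6 (127788099 to 137310944) ScQ had 9 to 374 reads and ScA 0 to 5, so here the never cultured libraries parted too. The 18 fragments at or near 0 in culture 27 alone, on chromosomes 17 (11), 13 (4) and 11 (3), had at most 3 reads in SC27-AP, 43 to 1712 in SC26-AP, and 5 to 897 and 9 to 981 in ScQ and ScA. In these 15 and 18 fragments each passage 0 library was thus at or near 0 where the later libraries of its own number were, and was read where they were read. Of the 38 fragments of the first kind, 21 had at most 14 reads in each of the 4 ESC libraries, whose lines are of 129 backgrounds. So had 13 of the 15 and 4 of the 18. This bound is looser than the 5 reads used in the search. The remaining 17 of the 38, 2 of the 15 and 14 of the 18 had at least 20 reads in every ESC library. Of the 5 smallest p values of the comparison, 3 belonged to such fragments, and of the 20 smallest 4. Whether the sites themselves differ between the animals was not tested, and the origin of the cells and culturing cannot be told apart at these fragments.

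**Figure D4:**
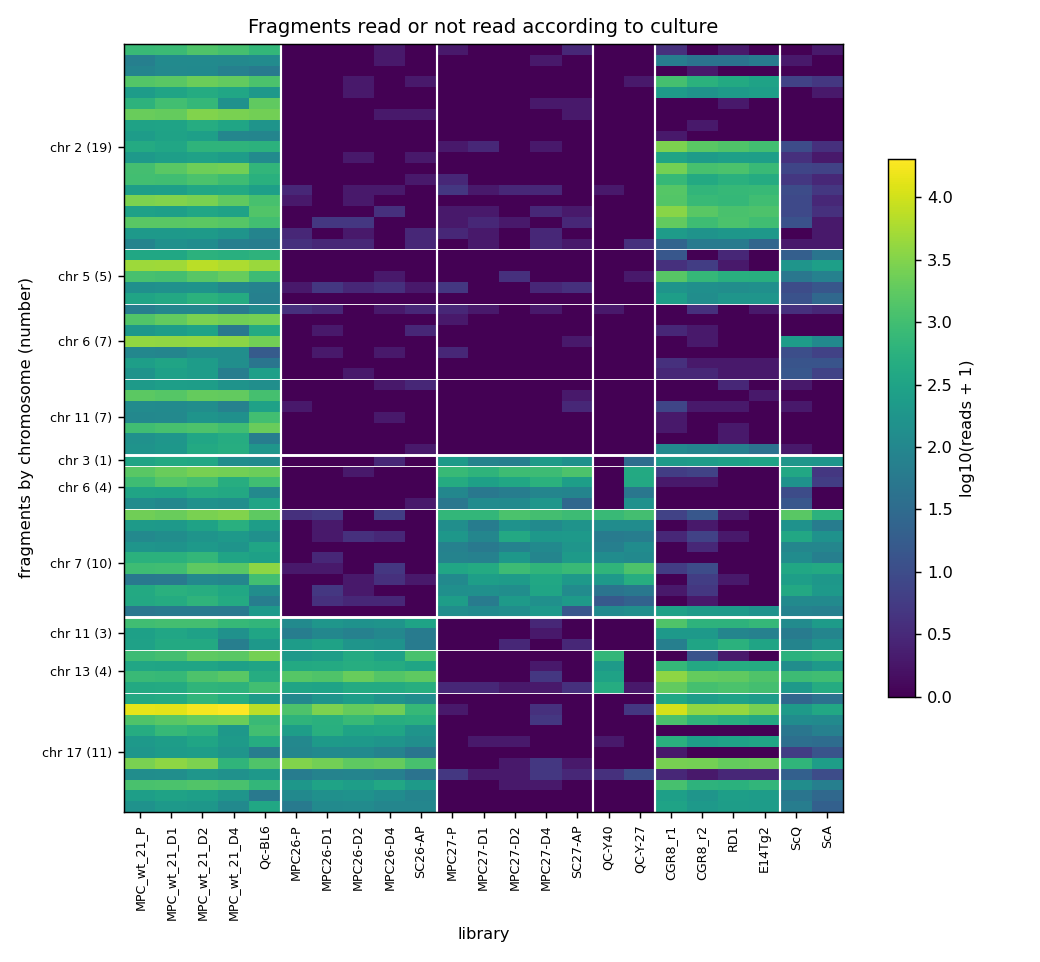
Reads (colour, log10 of reads + 1) of the 71 fragments found by culture (rows, by chromosome with their number, in 3 sets divided by thick lines) in the 23 libraries (columns). SC26-AP and SC27-AP are dark where the other libraries of culture 26 or 27 are dark. ScQ and ScA have reads in some blocks, such as chromosome 5, and hardly any in others, such as chromosome 11 (7) of the first set. In chromosome 11 (3) of the last set they have 61 to 120 and 90 to 230 reads.

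Fragments that were nearly absent from passage 0 lay in islands more often than tested fragments did. Of the 18 defined above, 12 lay in an island or shore (8 and 4) and 6 in neither. Over all tested fragments the numbers were 584 in islands, 1096 in shores and 13641 in neither. The shore fragment of Ercc2 (chr7:19967795-19969205) lies in the span of the chromosome 7 fragments above. It had 0 to 1 reads in the later libraries of culture 26. The 8 in islands, among them an intron fragment of Cdkn1a, the cell cycle inhibitor p21, and an intron fragment of Kif26b, a kinesin family gene, had 25 to 40 reads in ScQ and 34 to 55 in ScA. They had 1 to 2 in SC26-AP and 0 to 1 in SC27-AP. The same 8 had 0 to 6 reads in every culture 21 library and 471 to 1283 in day 4 myotubes of culture 27, but 0 to 5 in its day 2 library. In the technical pair of CGR8 libraries they had 0 to 4 and 0 to 42 reads. Counts of this set thus also move between libraries of 1 culture and of 1 line, and the part of library preparation in them was not tested.

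Cxcl5, which encodes a chemokine that draws neutrophils, had a promoter fragment outside any island (chr5:91188176-91188953) with 49 reads in ScQ and 42 in ScA, and 0 and 1 in passage 0, a ratio of 112 (exact 95% interval 19.5 to 4459). Among the other 19 libraries it had 757 reads in muscle library QC-Y40 and at most 1 in each of the rest. Zfp112, a zinc finger gene (promoter, chr7:24897221-24897640), had 177 and 64 reads against 0 and 2, a ratio of 148 (40.5 to 1228). It lies within the span of the chromosome 7 fragments above, which also holds fragments read in culture 26. In the other culture 26 libraries it had 0 to 3 reads. Bcl2l12, of the BCL2-like family (promoter, chr7:52255659-52256081), was at 56.3 and 84.8 CPM against 9.45 and 9.14, a log2 change of -2.92 ± 0.49 (SE). Dgkh, diacylglycerol kinase eta, had a promoter island fragment (chr14:79125039-79125492) at 22.9 and 20.5 CPM against 1.55 and 1.18, a change of -3.96 ± 0.65. None of these passed in edgeR (adjusted p = 0.28 for each), while DESeq2 called all 4 lower.

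In the higher direction the 6 leading fragments of named protein-coding genes lay outside islands and were read in all 4 libraries. Those of Spen, Mmp24 and Arhgef10l lie over a SINE. An intergenic fragment (chr2:158886676-158887284), also over a SINE, had a smaller p than all 6 in edgeR and in DESeq2. It had 142 and 346 reads against 876 and 1681. Spen, a transcriptional corepressor, was at 32 CPM in ScQ and 16.3 in ScA, and at 85.2 in SC26-AP and 261 in SC27-AP, a log2 change of 2.84 ± 0.64 (edgeR adjusted p = 0.28). Mmp24, a membrane-type metalloproteinase, was at 40.5 and 58.8 against 168 and 269 CPM (2.14 ± 0.50). Arhgap24, a GTPase-activating protein, was at 55.1 and 46.6 against 133 and 302 CPM (2.10 ± 0.54, or 1.23 within GC classes). Dhdds, of dolichol synthesis, was at 0.942 and 6.86 against 27.4 and 41.8 CPM (3.11 ± 0.82), and Arhgef10l, a guanine nucleotide exchange factor, at 4.55 and 2.04 against 9.87 and 45.9 (3.09 ± 0.82). The promoter of Padi1, a peptidylarginine deiminase, stood at 33 and 21 against 70.9 and 103 CPM, a change of 1.69 ± 0.48. The level in SC27-AP was above that in SC26-AP at all 6, and more than 2-fold so at Spen, Arhgap24 and Arhgef10l. None of the 6 passed in edgeR, with adjusted p from 0.28 to 0.301, while DESeq2 called 5 of them higher, all but Padi1.

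**Figure D5:**
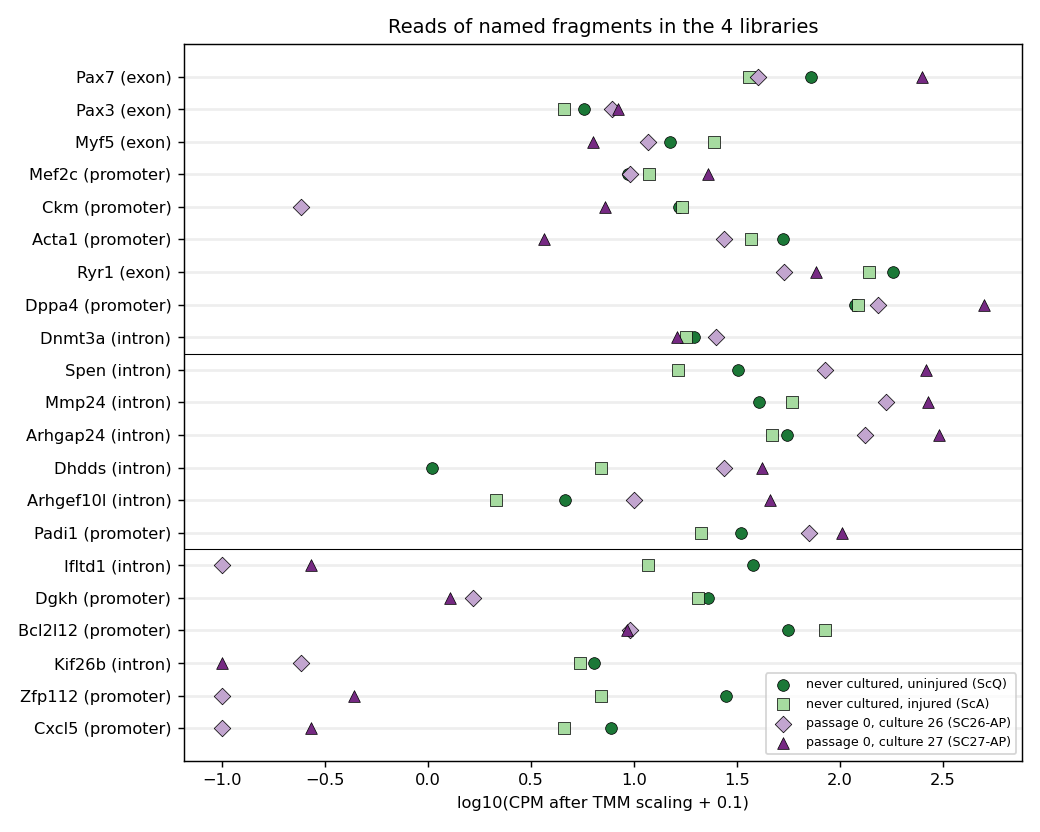
Level of named fragments (rows) in each of the 4 libraries (symbols), as log10 of CPM after TMM scaling plus 0.1 (x axis), so that 0 reads lie at -1. The top block holds genes followed whatever their result, the middle block the 6 leading fragments higher in passage 0 and the bottom block the 6 leading lower ones, in which the groups do not overlap, such as Bcl2l12 at 56.3 and 84.8 against 9.45 and 9.14 CPM.

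No fragment of the regulators of the muscle lineage passed the test in edgeR. Pax7, the factor that marks satellite cells, had 5 tested fragments. An exon fragment outside islands ( chr4:139294972-139295493) was at 72.8 and 36.3 CPM in never cultured cells and at 40.1 and 251 in passage 0. The groups overlapped, and the log2 change of 1.41 ± 0.76 (edgeR adjusted p = 0.319) turned to -0.41 without SC27-AP. The promoter island fragment of Pax7 (chr4:139388132-139388427) was at 41.4 and 20.3 CPM against 20.7 and 2.37, and an intron island (chr4:139380144-139380362) at 11.6 and 10.7 against 5.92 and 0. Pax3, its relative in the embryonic muscle lineage, had an exon shore at 5.65 and 4.5 against 7.76 and 8.29 CPM and a promoter island at 11.6 and 8.68 against 12.1 and 0.508. SC27-AP was thus the low library in all 3 of these islands, while SC26-AP lay at, below or above the level of ScA.

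Myf5, the early myogenic factor, had its coding exon fragment, printed above, at 14.9 and 24.3 CPM against 11.6 and 6.26. The groups did not overlap, and the change was -1.14 ± 0.59 (edgeR adjusted p = 0.313), or -0.62 within GC classes. Mef2c, a transcription factor that works with the myogenic factors, had a promoter shore at 9.26 and 11.7 against 9.45 and 22.8 CPM. Its log2 change of 0.62 ± 0.61 turned to -0.04 with library totals, -0.24 within GC classes and -0.12 without SC27-AP. Myod1, Myog, Cdh15 (the M-cadherin of satellite cells) and Notch1 had 1, 2, 2 and 5 fragments with at most 4 reads in any of the 4 libraries, too few to test. Myf6 had 0 fragments among those kept, so it could not be assessed. Over the whole list of 38 satellite cell and myogenic regulators, 28 fragments of 13 genes were tested. At an unadjusted p under 0.05, 0 were higher and 1 lower, an exon fragment of Sox8 at 9 and 21 reads against 3 and 0 (ratio 12.3, exact 95% interval 3.82 to 62.8). Over all tested fragments the shares were 6.36% and 10.1%. The median change was -0.55 (-0.35 within GC classes), against -0.06 over all tested fragments.

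Promoter fragments of the muscle genes Ckm and Acta1 had lower values in both passage 0 libraries, without passing the test. Ckm, muscle creatine kinase, had a promoter fragment (chr7:19996443-19997294) at 16.5 and 17 CPM in never cultured cells and at 0.141 and 7.11 in passage 0, a change of -2.22 ± 1.09 (edgeR adjusted p = 0.31). It lies in the span of the chromosome 7 fragments above, and all 4 later libraries of culture 26 had 1 read of it, against 58 to 330 in culture 27. Fragments in that span were not all near 0 there: the Ryr1 exon fragment below had 851 to 2457 reads in these culture 26 libraries. Acta1, skeletal muscle actin, had a promoter shore (chr8:126417989-126418689) at 52.9 and 36.9 against 27.4 and 3.55 CPM (-1.53 ± 0.78, adjusted p = 0.312). Ryr1, the calcium release channel of muscle, went both ways. An exon fragment (chr7:29889340-29889751) was at 181 and 138 against 53.5 and 76.8 CPM (-1.29 ± 0.46, adjusted p = 0.301), a change of -0.47 within GC classes. An intron fragment (chr7:29811757-29812812) was at 59.3 and 87 against 112 and 197, and in both the groups did not overlap. Of 31 tested fragments of the list, 0 were higher and 1 was lower at an unadjusted p under 0.05, against 6.36% and 10.1% of all tested. The list's median was -0.72, but -0.24 within GC classes and -0.21 with SC26-AP alone.

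Signalling genes had fragments in both directions, and the counts that follow stand beside 6.36% higher and 10.1% lower over all tested fragments. Of the Notch pathway, which holds satellite cells in quiescence, 1 of 15 fragments was higher and 1 lower at an unadjusted p under 0.05. The higher one was an intron fragment of Maml1, a coactivator of the Notch complex, over a SINE, at 163 and 105 against 235 and 549 CPM. The lower one was an exon island of the ligand gene Dll3, at 12 and 15 against 4 and 1 reads. The Wnt pathway had 1 higher and 5 lower of 28. An intron fragment of the coreceptor gene Lrp5, over a SINE, stood at 25.4 and 25.2 against 57.3 and 45.7 CPM. The promoter island of the receptor gene Fzd6 stood at 22 and 32 against 5 and 0 reads. The TGF beta and BMP pathway had 3 higher and 3 lower of 45. An exon of Ltbp2, a matrix protein of the TGF beta binding family, was at 15.7 and 13.7 against 35.3 and 67 CPM, and the promoter shore of Smad6, an inhibitory Smad, at 37 and 40 against 9 and 3 reads. FGF and HGF signalling had 2 higher and 9 lower of 45, but 31 of these lie in the annotated span of Fgfr2, which covers 3009069 bp in this annotation and holds other genes.

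Among cell cycle genes 2 of 16 fragments were higher and 4 lower at an unadjusted p under 0.05 (6.36% and 10.1% over all tested). Their median was -1.13, but -0.43 with SC26-AP alone and -3.23 with SC27-AP alone. An intron fragment of Ccnd3, cyclin D3, over a SINE, was at 24.5 and 31.7 against 67.6 and 69.2 CPM. The Cdkn1a island fragment (chr17:29231906-29232418) was at 3.92 and 3.86 against 0.282 and 0 CPM, a ratio of 37.4 in summed reads (exact 95% interval 9.93 to 316). Of the DNA methylation machinery, 1 of 7 fragments was higher and 1 lower. The intron fragment of Dnmt3a, a de novo methyltransferase, stood at 19.5 and 17.9 against 25.1 and 16.2 CPM, with no difference beyond the spread (0.15 ± 0.51, edgeR adjusted p = 0.862), and it turned to -0.33 with library totals, to -0.12 with all C57BL/6J cells in one fit and to -0.16 without SC26-AP. Dppa4, a nuclear factor of pluripotent cells, had a promoter fragment over a SINE (chr16:48284242-48284769) at 119 and 122 against 154 and 504 CPM (1.45 ± 0.61, adjusted p = 0.301). Pluripotency genes had 3 higher and 0 lower of 13, with a median of 0.10 (-0.08 with SC26-AP alone).

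Developmental regulators had more lower than higher fragments. Homeobox and T-box genes outside the HOX clusters had 0 of 65 fragments higher and 21 lower at an unadjusted p under 0.05 (against 6.36% and 10.1% of all tested), with a median of -0.74 (-1.01 within GC classes, -0.34 with SC26-AP alone, -1.77 with SC27-AP alone and -0.39 without ScQ). An intron shore of Pitx1, a factor of hindlimb identity (chr13:55930241-55930557), was at 41 and 23.6 against 9.73 and 5.92 CPM, a change of -2.04 ± 0.57 (edgeR adjusted p = 0.301). In the HOX clusters, 1 of 15 fragments was higher and 2 were lower. The higher one was the promoter of Hoxc4 at 72.3 and 74.9 against 115 and 207 CPM, and an exon island of Hoxd9 had 9 and 11 against 2 and 0 reads (ratio 12.3, exact 95% interval 2.98 to 108). Imprinted genes had 1 higher and 3 lower of 13, led by introns of Airn, the noncoding RNA of the Igf2r domain (60.6 and 62.2 against 123 and 128 CPM), and of Kcnq1, a potassium channel gene (103 and 82.1 against 49.9 and 25.7).

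Germ line genes had 5 higher and 0 lower of 24 at an unadjusted p under 0.05, against 6.36% and 10.1% of all tested. Their median was 0.44, but 0.21 within GC classes, 0.27 with SC26-AP alone, 0.68 without ScA and -0.09 with library totals, which moved the median of all fragments to -0.57. An exon fragment of Mov10l1, a helicase of the piRNA pathway, stood at 41.9 and 32.7 against 68.8 and 186 CPM, a change of 1.77 ± 0.55 (edgeR adjusted p = 0.301). Extracellular matrix genes had 8 higher and 7 lower of 118 and a median of 0.02. An exon fragment of Col27a1, a fibrillar collagen (chr4:62938642-62939396), was at 190 and 174 against 466 and 1047 CPM. An exon fragment of Lama5, a laminin chain of basement membranes (chr2:179921004-179921358), was at 33.6 and 42.1 against 4.51 and 6.94 CPM, a change of -2.73 ± 0.55. Neither passed in edgeR (adjusted p = 0.301 and 0.28).

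Marker genes of other cell types in muscle had fragments in both directions. Over all tested fragments 6.36% were higher and 10.1% lower at an unadjusted p under 0.05. By the same measure, blood cell genes had 1 fragment higher and 2 lower of 22, endothelial genes 1 and 5 of 34, and Schwann and neural genes 0 and 2 of 24. Fibroblast and fibro-adipogenic genes had 0 and 4 of 11, and adipocyte genes 1 and 4 of 29. An intron of Prdm16, a regulator of brown fat, was at 22.8 and 31.9 against 5.64 and 3.05 CPM. Summed over each list, levels in plain CPM ran from 1492 to 1500 in never cultured and 1393 to 1396 in passage 0 cells for blood genes, and from 2038 to 2140 and 1825 to 2038 for endothelial genes. For fibroblast genes they ran from 802 to 1000 and 655 to 945, and for Schwann and neural genes from 1687 to 2144 and 1073 to 1869. In these sums the groups did not overlap for blood and adipocyte genes, and adipocyte genes stood at 1259 and 1507 in never cultured cells against 1093 and 874 in passage 0. Plain CPM is not TMM-scaled, and the direction depended on the scaling for blood genes. Their median change was 0.28 with TMM and -0.17 with library totals, and that of adipocyte genes -0.65 and -1.11. Sums of Notch pathway genes did not overlap either, in the other direction (2892 and 2111 against 3293 and 3269). The same held for extracellular matrix genes (10111 and 10022 against 10831 and 12346). With 2 against 2 libraries such separation is common: 28.6% of single tested fragments had it in the higher and 33.1% in the lower direction. A mixture of cell types would show only through methylation here, and its part in the results was not tested.

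The uninjured and the injured library can be compared only as 1 against 1, with no test. The largest ratio among fragments of named protein-coding genes was at an intron shore of Nuak2, a kinase of the AMPK family, with 1113 reads in ScQ and 199 in ScA. The ratio of plain CPM was 6.95 with an exact 95% interval of 5.97 to 8.12 for counting error only, and the passage 0 libraries, with 968 and 1331 reads, were like ScQ. Runx2, the regulator of bone formation, had 118 and 32 reads at an intron (ratio 4.58, interval 3.08 to 7), and Chst11, a chondroitin sulfotransferase, 188 and 56. In the other direction, Adarb1, an RNA-editing deaminase, had 43 reads in ScQ and 289 in ScA at an intron, a ratio of 5.41 (3.92 to 7.64). Ptpn14, a tyrosine phosphatase, had 31 and 203, Atp10b, a flippase, 88 and 560, and Scn10a, a sodium channel of sensory neurons, 20 and 126. At these 4 the passage 0 libraries had 13 to 87 reads in SC26-AP and 5 to 73 in SC27-AP, nearer to ScQ. Passage 0 did not lie nearer to ScQ throughout: Chst11 had 91 reads in SC26-AP and 72 in SC27-AP, and the Zfp112 fragment, with 177 reads in ScQ and 64 in ScA, had 0 and 2. Injury, animal and library change together in this pair.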

How the data were processed

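Raw read counts were used as the authors deposited them, per the file headers, from the count table alone. An Illumina GA2 produced the reads, and mm9 is the build, per the labels' protocols. Bowtie 0.11.3 and DESeq are named in the submitters' processing notes. CpG and repeat classes are those of the table. Genes came from GENCODE M1, with 2000 bp upstream counted to the gene. All 49684 fragments kept have CCCGGG at both ends.

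The 2 never cultured and 2 passage 0 libraries were tested with edgeR 4.0.16 (quasi-likelihood test, TMM, filterByExpr with a minimum count of 10, two-sided, threshold 0.05), after a check on simulated data. TMM factors were 1.12, 1.32, 0.996 and 0.685 for ScQ, ScA, SC26-AP and SC27-AP. DESeq2 1.42.0 was an alternative. Intervals are exact (Clopper-Pearson, 95%). Nothing says that the libraries of a group came from separate animals, so p-values measure the spread between libraries. An exact permutation test of 2 against 2 libraries cannot go below 0.333. R was 4.3.3.

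The comparison, lists and genes were chosen with earlier results of these data known. For each of 14 genes the fragment of smallest p is named, if tested. Also named are per direction the 6 fragments of a protein-coding gene with the smallest p whose groups do not overlap, and per direction the 4 largest ratios of ScQ to ScA. The leading fragment of each list and the sequences of Spen and of the intergenic fragment were added after values had been seen. Analyses ran on reads, which carry no molecular identifiers.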

Additional observations from a re-analysis of the deposited data

Results flagged for a closer look

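Chromosomes X and Y lie outside the fragments tested. SC27-AP had a level of 234.9 CPM on chromosome Y, above the 101.0 and 101.8 of the never cultured libraries, and of 14791 CPM on chromosome X, below their 30695 and 27374. SC26-AP, at 78.8 and 27614, was like the never cultured libraries. All 4 are labelled male.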

How the results depend on the processing

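The count of called fragments was 0 with DESeq2's size factors, a minimum count of 30, all groups or all C57BL/6J cells in one fit, fragments of 200 bp or more, TMM within GC classes and fragments without a repeat, the last 2 chosen after seeing the data. It was 114 with library totals, 82 with DESeq2, 411 with no low-count filter, 5 with all fragments of the table, and 1 to 5741 without 1 library (1 without ScA, 2 without ScQ, 406 without SC27-AP, 5741 without SC26-AP). Library totals moved the median of all changes from -0.06 to -0.57 over the same 15321 fragments. The settings that follow also changed the set of fragments, so their medians mix set and method. The median was -0.36 with DESeq2 over all fragments with any read, and -0.42 with no filter over 24600. It was -0.28 with all groups in one fit over 17697, and -0.48 with the C57BL/6J cells in one fit over 17196. Of 58 named fragments, 50 passed without SC26-AP, 14 without SC27-AP, 14 with DESeq2, 17 without the filter and 8 with library totals. Directions turned for Pax7 (-0.41 without SC27-AP, in a range up to 2.24 without SC26-AP), Mef2c (-0.04 with library totals, -0.24 within GC classes, and -0.12 without SC27-AP to 1.16 without SC26-AP) and Dnmt3a (-0.33 with library totals, -0.12 with the C57BL/6J cells in one fit, and -0.16 without SC26-AP to 0.46 without SC27-AP). The cause was not tested. No paired analysis was possible because the never cultured libraries carry no replicate number.

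With library totals the class medians were -0.46 outside islands and shores, -0.62 in exons, -0.46 between genes, -0.41 in introns, -1.39 in promoters, 0.11 in IAP, -1.07 in L1Md, -0.16 in SINE, -0.10 in other LINE, -0.06 in other LTR and -0.80 outside repeats. Within GC classes they were 0.01 in exons, 0.02 in introns, 0.36 in IAP, 0.05 in L1Md, 0.06 in SINE, 0.03 in other LINE and 0.27 in other LTR. Without 1 library they ran from -4.39 to -1.0 in islands, -1.64 to -0.45 in shores, -0.01 to 0.09 outside both, -0.14 to 0.00 in exons, -0.01 to 0.11 between genes, 0.04 to 0.13 in introns, -1.25 to -0.45 in promoters, 0.27 to 1.04 in IAP, -0.88 to -0.36 in L1Md, 0.26 to 0.40 in SINE, 0.19 to 0.62 in other LINE, 0.30 to 0.64 in other LTR and -0.39 to -0.14 outside repeats.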
